A study of Homo sapiens with 2 samples.

Results

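Interferon-stimulated genes and interferon regulatory factors (IRFs) form a set of 49 genes here, taken by symbol from a deposited table of 50464 symbols, and all 49 were found. RNA was sequenced from KASUMI-1 cells, an established line of acute myeloid leukaemia that carries the RUNX1-RUNX1T1 fusion, 1 library from cells infected with the USP6 lentivirus and 1 from cells infected with the pccl lentivirus, taken here as the control. Both groups were infected with a lentivirus and grown in serum, and the labels give neither the promoter of the construct nor the time after infection. With 1 library per group no test was possible and no difference below has a replicate check. Intervals in brackets are exact 95% Clopper-Pearson intervals of a ratio of counts, which cover counting error only and may be too narrow because reads copied by PCR are not independent.

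Type I interferons bind a receptor whose kinases JAK1 and TYK2 phosphorylate STAT2. With IRF9, STAT2 acts at the interferon-stimulated response element (ISRE) in the promoters of antiviral genes, while interferon gamma acts through the GAS motif. IRF3 and IRF7 switch on the interferon genes once a nucleic acid sensor has signalled, and IRF4 and IRF8 also direct the development of blood cells. USP6 is a deubiquitinase that has been reported to stabilise the JAK1 protein in other cells.

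The libraries had 12518795 counts (USP6) and 12306442 counts (pccl), of which the mitochondrial genome took 45.6% and 49.9%. USP6 itself had 70 counts (0.340 FPKM) in the USP6 library and 8 (0.0396 FPKM) in the pccl library, 8.60-fold higher (4.13 to 20.7). All 7 markers chosen for KASUMI-1 cells reached 1 FPKM, but 4 of them differed by at least 1 on the log2 scale: MPO was 4.44-fold higher (4.21 to 4.69) and SPI1 2.45-fold higher (2.37 to 2.54), whereas KIT was 2.48-fold lower (2.39 to 2.58) and CD34 3.01-fold lower (2.75 to 3.29). Of 18 markers of plasmacytoid dendritic cells, monocytes, B cells, T cells and natural killer cells, 5 reached 1 FPKM in the higher library. These were IL3RA, CD79A, CD79B, CD3E and CD2, all higher in the USP6 library. All of these but IL3RA (0.92) differed by at least 1 on the log2 scale. CLEC4C, TCF4, FCGR3A, MARCO and KLRD1 had 0 counts in both, which allows up to 3 counts, or 0.24 CPM in the USP6 library and 0.244 CPM in the pccl library. Summed levels of these markers in the USP6 library were 2.34 FPKM for dendritic cells, 1.14 for monocytes, 12.6 for B cells and 8.41 for T and natural killer cells, against 0.506, 0.432, 3.13 and 1.58 FPKM in the pccl library. The part of all these marker differences in the values below was not tested. In bulk RNA, fewer cells that use a gene and less RNA per cell cannot be told apart.

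Single interferon-stimulated genes and IRFs differed in both directions between the libraries. FPKM are counts divided by gene length and by the library's total count. Of the 49 members, 28 had at least 1 FPKM in the higher library. On the scale log2((USP6 + 1)/(pccl + 1)) of FPKM, on which low genes show less than their fold, 6 of these 28 (21.4%) were higher by at least 1, namely ISG15, GBP2, OASL, XAF1, IRF3 and SP110. Across all 10153 genes at that level, 13.7% were. Another 3 members (10.7%), IRF2, BST2 and LY6E, were lower by at least 1, against 11.4% of all genes. This filter let a gene pass through the library where it is high: 4 of the 6 higher members (GBP2, OASL, XAF1 and SP110) stayed under 1 FPKM in pccl cells, as did IRF2 and BST2, 2 of the 3 lower members, in USP6 cells. The counts are therefore a description and say nothing on which direction prevailed. The median over the 28 members that passed was 0.31, against 0.06 over all genes. Scaled by the trimmed mean of M values, to a median of 0 or by nuclear counts, 5 were higher and 4 lower, since SP110, just past the limit as deposited, dropped out and PARP14 (-0.99) came in. Just under the limit on the other side lay IRF5 (0.97) and IRF7 (0.92). Scaling by nuclear counts moved the median of all genes to -0.05, and among the 41 members with at least 20 counts the sign of OAS1 alone turned with one of these scalings.

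Low counts limited the list. Of the 49 members, 8 had fewer than 20 counts over both libraries. GBP1 and EPSTI1 had 0 counts in both. IRF8 and TRIM22 had 4 counts in the USP6 library and 0 in the pccl library, and IFI44L had 2 in the USP6 library and 0 in the pccl library. GBP4 had 16 counts in the USP6 library and 2 in the pccl library, IFI27 had 12 in the USP6 library and 2 in the pccl library, and IRF4 had 2 in the USP6 library and 7 in the pccl library. The ratio was 7.86 for GBP4 (1.85 to 70.5) and 5.90 for IFI27 (1.31 to 54.3), intervals that exclude 1 but rest on 2 counts in the pccl library. By share of counts, 5 of these 8 were higher in the USP6 library and 1, IRF4, in the pccl library. IRF8, TRIM22 and IFI44L are among the 5 on at most 4 counts each. No such tally was made over all genes with as few counts, so it shows no direction.

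Among the 41 members with at least 20 counts over both libraries, 28 were above and 13 below a ratio of 1, and the median ratio was 1.53, against 1.06 over all 13255 genes with that many counts. By FPKM with no pseudocount, 13 members (31.7%) were at least 2-fold higher, against 23.1% of all genes, and 7 (17.1%) at least 2-fold lower, against 20.1%. The counting interval included 1 for 7 members, IRF9, OAS1, IFIT1, IFIT3, MX1, MX2 and IFI44. The shares of all genes above 1, below 1 or with an interval that includes 1 were not computed. The 28, 13 and 7 members are therefore a description only. Either way, 43.3% of all genes differed at least 2-fold, so the counts by role given below stand against a background of 23.1% higher and 20.1% lower. The lower share of members lay near that of all genes, and the 41 members spanned a range from IRF2, 26.9-fold lower (12.8 to 67.8), to XAF1, 67.6-fold higher (26.1 to 249.8).

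**Figure D1:**
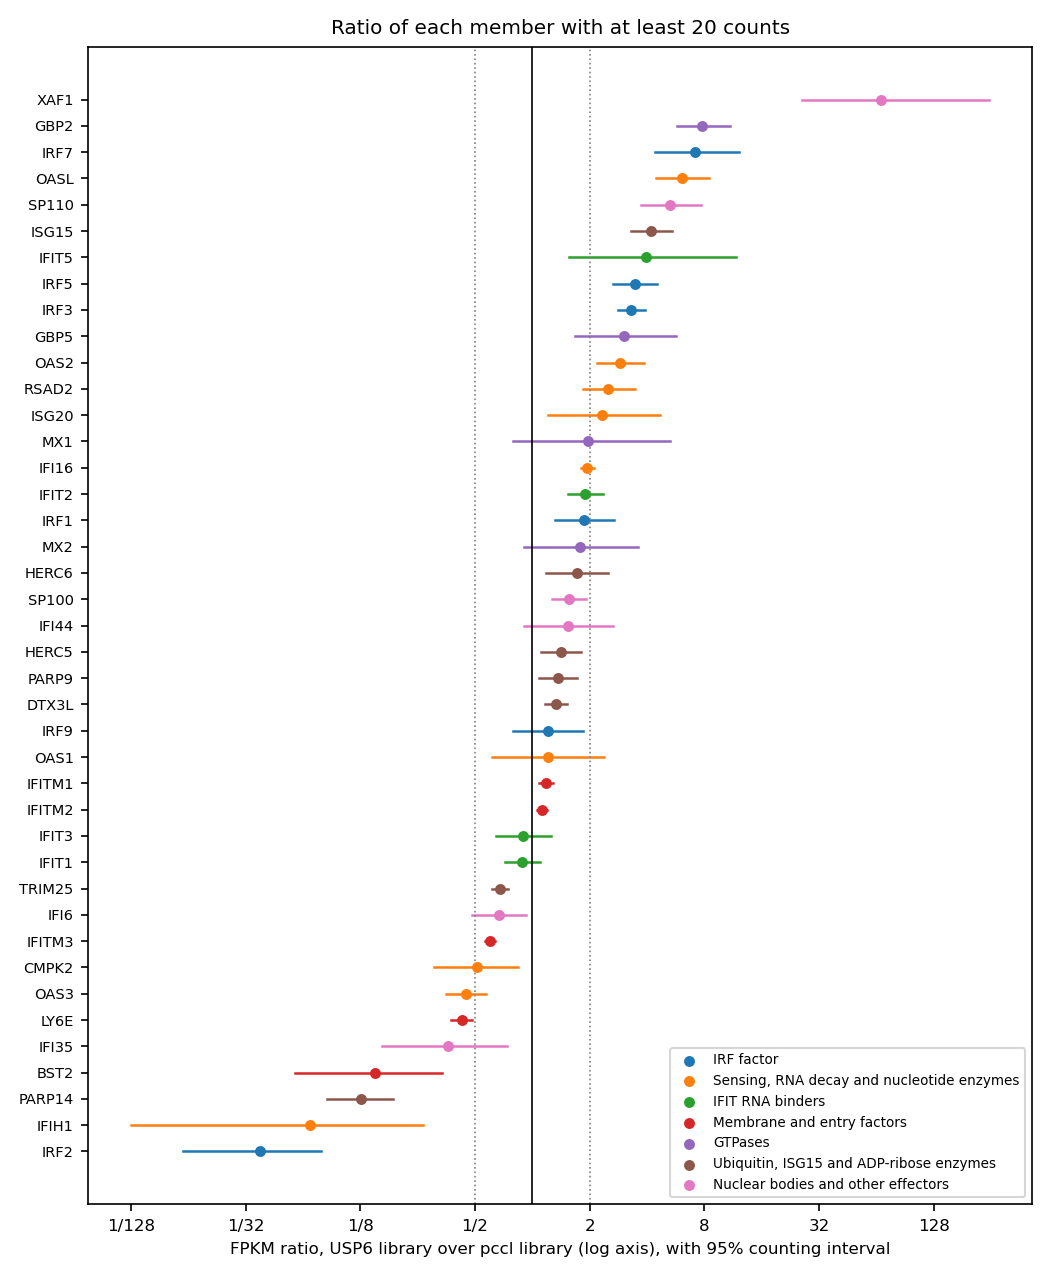
Ratio of FPKM, USP6 library over pccl library, of the 41 members with at least 20 counts (log axis), coloured by role. Points are ratios, bars are 95% counting intervals, and dotted lines mark 2-fold. XAF1 stands furthest to the right at 67.6 and IRF2 furthest to the left, 26.9-fold lower.

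The lengths behind the deposited FPKM matter for levels between genes. They equal the summed length of all distinct exons of a gene, with overlapping exons counted again, in 40 of the 47 members with a count (within 0.1%). IRF3 was given 13757 bases, more than its locus of 6307, whereas its merged exons cover 3794. The deposited length was 1 to 3.63 times the merged length among the members (median 1.56). Ratios between the libraries are untouched by this, but the level of IRF3, IRF7 and LY6E is understated most. Levels between genes are therefore compared below as FPKM per merged exon length, which is stated each time.

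On that scale the IFITM genes, whose products block the fusion of viruses with the cell membrane, were by far the most abundant members. IFITM2 had 128 FPKM in the USP6 library and 114 FPKM in the pccl library, IFITM1 had 89.3 FPKM in the USP6 library and 75.5 FPKM in the pccl library, and IFITM3 had 97.5 FPKM in the USP6 library and 163 FPKM in the pccl library. Thus IFITM2 led in the USP6 library and IFITM3 in the pccl library. Next in the USP6 library came ISG15, with 29.7 FPKM in the USP6 library and 7.08 FPKM in the pccl library. Its deposited length of 2070 bases exceeds the 1592 bases of its distinct exons in GENCODE release 29, the source of the merged lengths. The place of ISG15 just above IFI16 in the USP6 library is therefore uncertain. Next in the pccl library came LY6E, with 10.1 FPKM in the USP6 library and 23.8 FPKM in the pccl library. IFI16 followed in both libraries, with 27.1 FPKM in the USP6 library and 13.9 FPKM in the pccl library. Among the 41 members with at least 20 counts, the lowest was IFIH1 in the USP6 library (0.0313) and XAF1 in the pccl library (0.0491). With these lengths, 32 members reached 1 FPKM in the higher library, 8 of them (25%) higher and 4 (12.5%) lower, against 14.8% and 12.7% of all 11234 genes. IRF5, IRF7 and PARP14 then passed the limit of 1 as well.

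**Figure D2:**
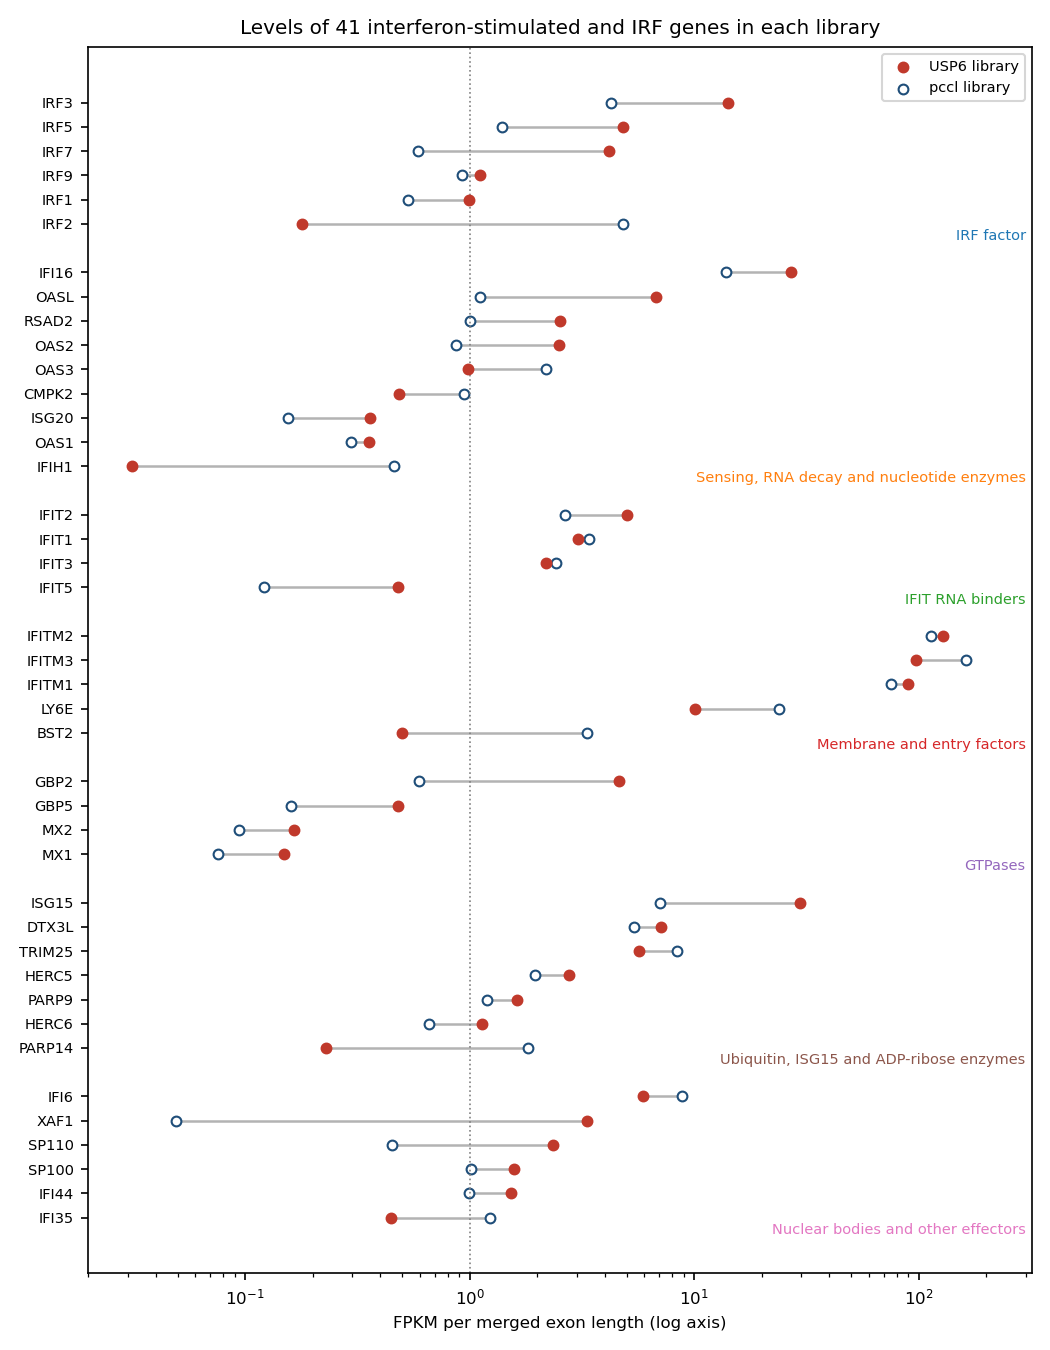
Level of the 41 members with at least 20 counts in the USP6 library (filled) and the pccl library (open), as FPKM per merged exon length (log axis), grouped by role. IFITM1, IFITM2 and IFITM3 lie above 70 FPKM in both libraries, and XAF1 spans the widest gap, 3.32 against 0.0491 FPKM.

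Of the 8 IRF genes, 6 had at least 20 counts, and 3 of these were at least 2-fold higher and 1 at least 2-fold lower in the USP6 library, where 23.1% and 20.1% of all genes were. IRF7, the main inducer of interferon alpha genes, had 138 counts (1.22 FPKM) in the USP6 library and 19 (0.171 FPKM) in the pccl library, 7.14-fold higher (4.40 to 12.2). IRF3, which is present before infection and turns on the interferon beta gene, had 671 counts (3.90 FPKM) in the USP6 library and 199 (1.18 FPKM) in the pccl library, 3.31-fold higher (2.83 to 3.90). IRF5, an activator of inflammatory genes in macrophages, had 263 counts (2.21 FPKM) in the USP6 library and 75 (0.641 FPKM) in the pccl library, 3.45-fold higher (2.66 to 4.52). These 3 genes have GC-rich transcripts (66.9%, 59.0% and 57.7%), and after centring on the trend with GC content their log2 ratios were 0.10, 0.69 and 0.57, under the limit of 1. IRF3 overlaps BCL2L12 on the opposite strand over 734 bases.

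IRF2 went the other way. It encodes a factor that binds the same sites as IRF1 and mostly represses them, and it is listed on chromosome 4 from 184387713 to 184474580. It had 7 counts (0.138 FPKM) in the USP6 library and 185 (3.72 FPKM) in the pccl library, 26.9-fold lower (12.8 to 67.8), and only 60 of the 13255 genes with at least 20 counts had a lower ratio when counts under 3 were set to 3. After GC centring its log2 ratio was -1.86. IRF1, the activator, had 97 counts (0.574 FPKM) in the USP6 library and 51 (0.307 FPKM) in the pccl library, 1.87-fold higher (1.32 to 2.68). IRF9, the DNA-binding partner of STAT2, had 53 counts (0.538 FPKM) in the USP6 library and 43 (0.444 FPKM) in the pccl library, a ratio of 1.21 whose interval (0.795 to 1.86) includes 1. A further transcript, AL136295.5, covers the whole IRF9 locus on the same strand, so its reads may be shared.

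Genes of nucleic acid sensing, RNA decay and nucleotide metabolism included 4 of 9 at least 2-fold higher and 2 at least 2-fold lower, against 23.1% and 20.1% of all genes. IFIH1, the cytosolic sensor of long double-stranded RNA also called MDA5, had 2 counts (0.0282 FPKM) in the USP6 library and 29 (0.415 FPKM) in the pccl library, 14.8-fold lower (3.73 to 128), a ratio that rests on 2 counts. IFI16, a nuclear DNA sensor and the most abundant gene of this group, had 1795 counts (14.6 FPKM) in the USP6 library and 908 (7.51 FPKM) in the pccl library, 1.94-fold higher (1.79 to 2.11). The GC-centred log2 ratio of IFI16 was 1.24, against 0.87 before.

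The oligoadenylate synthetases make the second messenger that activates RNase L, and they did not move together. OASL, a relative without that activity, had 297 counts (4.32 FPKM) in the USP6 library and 48 (0.710 FPKM) in the pccl library, 6.08-fold higher (4.47 to 8.43). OAS2 had 197 counts (1.49 FPKM) in the USP6 library and 67 (0.514 FPKM) in the pccl library, 2.89-fold higher (2.18 to 3.87). OAS3, its neighbour, had 102 counts (0.723 FPKM) in the USP6 library and 223 (1.61 FPKM) in the pccl library, 2.22-fold lower (1.75 to 2.84). OAS1 was low in both libraries, with 22 counts in the USP6 library, 18 in the pccl library and a ratio of 1.2 (0.615 to 2.38), and its log2 ratio turned to -0.02 when the median of all genes was set to 0.

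RSAD2 encodes viperin, which makes a chain-terminating nucleotide, and CMPK2 encodes a mitochondrial nucleotide kinase next to it. RSAD2 had 153 counts (2.18 FPKM) in the USP6 library and 60 (0.868 FPKM) in the pccl library, 2.51-fold higher (1.85 to 3.44). CMPK2 had 26 counts (0.262 FPKM) in the USP6 library and 50 (0.513 FPKM) in the pccl library, 1.96-fold lower (1.19 to 3.27). These genes lie head to head, and their loci overlap by 830 bases on opposite strands. ISG20, an RNA exonuclease, had 33 counts in the USP6 library and 14 in the pccl library, 2.32-fold higher (1.21 to 4.69).

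The IFIT proteins bind viral RNA ends and block its translation. IFIT2 had 259 counts (3.17 FPKM) in the USP6 library and 134 (1.67 FPKM) in the pccl library, 1.90-fold higher (1.54 to 2.36). IFIT1 had 175 counts (2.21 FPKM) in the USP6 library and 194 (2.49 FPKM) in the pccl library, a ratio of 0.887 (0.719 to 1.09), and IFIT3 had 72 counts (2.18 FPKM) in the USP6 library and 79 (2.43 FPKM) in the pccl library, a ratio of 0.896 (0.642 to 1.25). Both intervals include 1, and both log2 ratios turn positive after GC centring, to 0.16 and 0.12. IFIT5 had 24 counts in the USP6 library and 6 in the pccl library, 3.93-fold higher (1.57 to 11.8). LIPA runs through the loci of IFIT1, IFIT2 and IFIT3 on the opposite strand, and it had 12 counts in the USP6 library and 477 in the pccl library. The strandedness of the libraries was not given, so the part of LIPA reads in these values was not tested.

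None of the 5 membrane factors was 2-fold higher, and 2 were at least 2-fold lower, against 23.1% and 20.1% of all genes. BST2, or tetherin, which holds budding virions at the cell surface, had 7 counts (0.362 FPKM) in the USP6 library and 46 (2.42 FPKM) in the pccl library, 6.68-fold lower (3.0 to 17.5). LY6E, a lipid-anchored surface protein, had 334 counts (2.99 FPKM) in the USP6 library and 772 (7.04 FPKM) in the pccl library, 2.35-fold lower (2.07 to 2.68). IFITM3 had 1645 counts (61.5 FPKM) in the USP6 library and 2699 (103 FPKM) in the pccl library, 1.67-fold lower (1.57 to 1.78). By contrast, IFITM1 had 1208 counts (44.7 FPKM) in the USP6 library and 1004 (37.8 FPKM) in the pccl library, 1.18-fold higher (1.09 to 1.29), and IFITM2 had 2472 counts (65.9 FPKM) in the USP6 library and 2158 (58.5 FPKM) in the pccl library, 1.13-fold higher (1.06 to 1.19). The log2 ratio of IFITM2 was 0.17 and turned to -0.10 after GC centring. These IFITM genes are close copies of each other and the locus of IFITM1 lies within that listed for IFITM2, so their counts are uncertain.

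Of the 6 GTPase genes, 4 had at least 20 counts and 2 of these were at least 2-fold higher, against 23.1% of all genes. GBP2, a guanylate-binding protein that coats intracellular pathogens, had 365 counts (4.03 FPKM) in the USP6 library and 46 (0.516 FPKM) in the pccl library, 7.80-fold higher (5.73 to 10.8). It is listed on chromosome 1 from 89106132 to 89150456. GBP5 had 49 counts (0.396 FPKM) in the USP6 library and 16 (0.132 FPKM) in the pccl library, 3.01-fold higher (1.68 to 5.67). MX1 and MX2, which trap viral nucleocapsids, were low, with 16 and 27 counts in the USP6 library and 8 and 15 in the pccl library. Their ratios were 1.97 (0.794 to 5.31) and 1.77 (0.908 to 3.58).

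ISG15 is a ubiquitin-like protein that is attached to others by the enzymes UBA7, UBE2L6 and HERC5 and removed by USP18. ISG15, on chromosome 1 from 1001138 to 1014541, had 350 counts (13.5 FPKM) in the USP6 library and 82 (3.22 FPKM) in the pccl library, 4.20-fold higher (3.29 to 5.40). The ligase gene HERC5 had 165 counts (2.05 FPKM) in the USP6 library and 115 (1.46 FPKM) in the pccl library, 1.41-fold higher (1.10 to 1.81). Its neighbour HERC6 had 82 counts (0.694 FPKM) in the USP6 library and 47 (0.404 FPKM) in the pccl library, 1.72-fold higher (1.18 to 2.51). UBA7, the activating enzyme, had 289 counts (2.60 FPKM) in the USP6 library and 33 (0.301 FPKM) in the pccl library, 8.61-fold higher (5.99 to 12.7). The conjugating enzyme UBE2L6 went against these, with 38 counts (0.80 FPKM) in the USP6 library and 101 (2.16 FPKM) in the pccl library, 2.70-fold lower (1.84 to 4.04), and USP18 had 12 counts and 27 counts in the USP6 and pccl libraries, 2.29-fold lower (1.12 to 4.96). UBE2L6 and USP18 stayed within the limit of 1 on the log2 scale and were named after their values were seen.

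The ubiquitin ligase gene TRIM25, which acts on the sensor RIG-I, had 675 counts (4.85 FPKM) in the USP6 library and 979 (7.16 FPKM) in the pccl library, 1.48-fold lower (1.34 to 1.63). PARP9 and DTX3L encode a joint ADP-ribosyltransferase and ubiquitin ligase, and they had like ratios. PARP9 had 182 counts (1.17 FPKM) in the USP6 library and 131 (0.855 FPKM) in the pccl library, 1.37-fold higher (1.09 to 1.72). DTX3L had 524 counts (6.83 FPKM) in the USP6 library and 388 (5.15 FPKM) in the pccl library, 1.33-fold higher (1.16 to 1.52). Their loci overlap by 340 bases on opposite strands. PARP14, another ADP-ribosyltransferase, stood apart, with 30 counts (0.166 FPKM) in the USP6 library and 234 (1.31 FPKM) in the pccl library, 7.93-fold lower (5.41 to 12.0).

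Of the remaining effectors, XAF1 differed most. XAF1, which binds the apoptosis inhibitor XIAP, is listed on chromosome 17 from 6755447 to 6775647 and had 275 counts (1.65 FPKM) in the USP6 library and 4 (0.0244 FPKM) in the pccl library, 67.6-fold higher (26.1 to 249.8). Only 4 of the 13255 genes had a higher ratio with counts under 3 set to 3, and after GC centring the log2 ratio was 1.63. SP110, a nuclear body protein, had 203 counts (1.62 FPKM) in the USP6 library and 38 (0.308 FPKM) in the pccl library, 5.25-fold higher (3.70 to 7.64). SP100, a core component of nuclear bodies, had 250 counts (1.16 FPKM) in the USP6 library and 158 (0.746 FPKM) in the pccl library, 1.56-fold higher (1.27 to 1.91). Both nuclear body genes were thus higher, SP110 by more. IFI6, an inhibitor of cell death, had 64 counts (2.51 FPKM) in the USP6 library and 94 (3.75 FPKM) in the pccl library, 1.49-fold lower (1.08 to 2.09). IFI35, which binds the STAT-interacting protein NMI, had 11 counts in the USP6 library and 30 in the pccl library, 2.77-fold lower (1.35 to 6.14). IFI44 had 39 counts in the USP6 library and 25 in the pccl library, a ratio of 1.53 (0.905 to 2.64).

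Interferon-stimulated genes often lie in clusters, so neighbours were compared by a rule set after the values had been seen. Not all neighbours are copies of each other, since RSAD2 and CMPK2, for example, encode unlike enzymes. Of the members, 27 lie in 10 groups in which neighbouring loci are at most 200 kb apart. In 9 of these groups at least 2 members had 20 counts, and in 6 the highest and the lowest ratio differed at least 2-fold. Between the libraries, 43.3% of all genes with at least 20 counts differed at least 2-fold. How often neighbours among all genes spread this far was not computed, so the 6 of 9 is a description only. The gap was 10.8-fold between PARP9 and PARP14, within 203 kb of chromosome 3. It was 6.43-fold between OAS2 and OAS3, within 105 kb of chromosome 12, and 4.90-fold between RSAD2 and CMPK2. The IFIT group spanned 4.43-fold, a gap that rests on IFIT5 with 24 counts in the USP6 library and 6 in the pccl library. SP110 and SP100 differed 3.38-fold, and GBP2 and GBP5 differed 2.59-fold. The IFITM, HERC and MX groups stayed under 2-fold, at 1.97, 1.22 and 1.11.

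**Figure D3:**
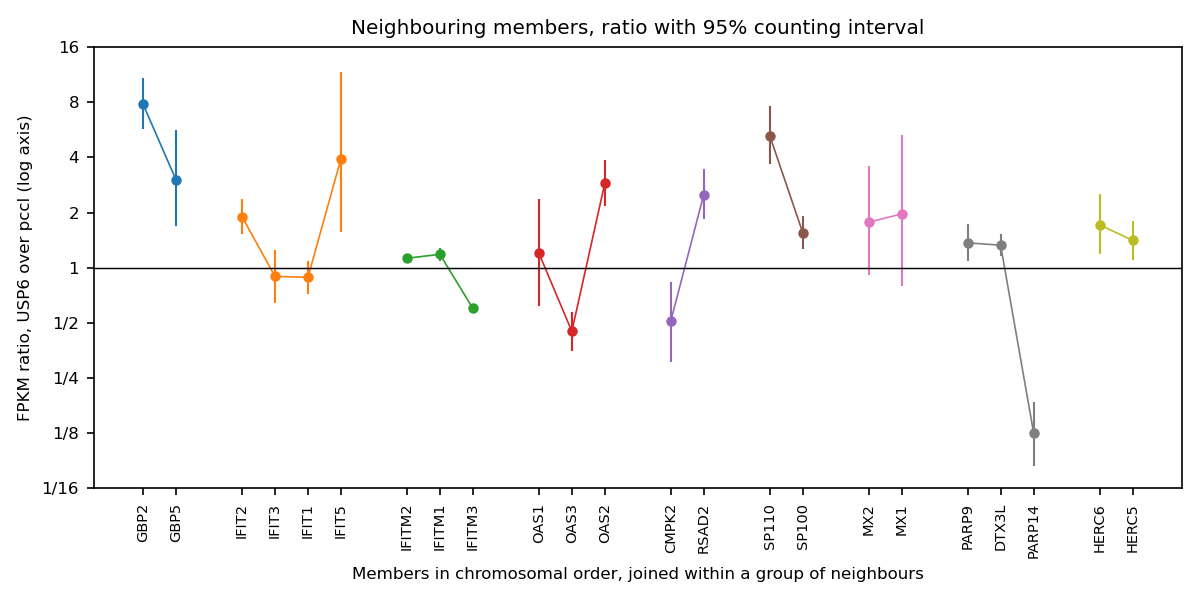
Ratio of FPKM (USP6 over pccl, log axis) of the members with at least 20 counts that have such a neighbour, in chromosomal order and joined within a group. Bars are 95% counting intervals. PARP14, OAS3, CMPK2, IFITM3, IFIT1 and IFIT3 lie below 1 beside neighbours above 1, although the intervals of IFIT1 and IFIT3 include 1.

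Promoters were read from RefSeq (GRCh38.p14), as 250 bases before to 50 after a gene's start, for the 37 members found there. The ISRE core was searched on both strands as GAAA, then NN, then GAAA. It was present for 23 of the 37 members (62.2%), against 4.38% of all 27305 genes. None of the 5 IRF genes with a promoter (IRF1, IRF4, IRF5, IRF8 and IRF9) had it in this window. Repeats with another spacer did not count as the core, such as GAAACGAAA in the windows of XAF1, OAS1 and IRF5. The GAS motif, TTCNNNGAA, read the same on both strands, was present for 11 members (29.7%), IRF1 and IRF9 among them, against 9.38% of all genes. Matches of both motifs can overlap, and a match describes letters, not binding.

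Members with the ISRE core differed 2-fold about as often as all genes. Of 18 with the core and at least 20 counts, 4 were at least 2-fold higher, 4 at least 2-fold lower and 10 differed by less, against 23.1% higher and 20.1% lower of all genes, with ratios from 0.0678 to 4.20 and a median of 1.26. Of 12 without it, 3 were higher, 1 lower and 8 differed by less, with ratios from 0.360 to 67.6 and a median of 1.64. Members without the core can still hold the repeat with another spacer, as XAF1 and OAS1 do, so they do not stand for genes without an ISRE. To show the string before genes of either direction, chosen with their ratios known, the 8 members that differed at least 2-fold are given with DTX3L and IFIT1 as examples of smaller differences. The 30-base stretches around the first match are given from the highest to the lowest ratio, on the strand of the motif, with every match in capitals, a match that runs past the edge included. They lie at chr1:1013374-1013403 (ISG15), chr10:89414513-89414542 (IFIT5), chr2:6877622-6877651 (RSAD2), chr15:88638937-88638966 (ISG20), chr3:122564322-122564351 (DTX3L), chr10:89392497-89392526 (IFIT1), chr12:112938321-112938350 (OAS3), chr19:17405741-17405770 (BST2), chr3:122680800-122680829 (PARP14) and chr2:162318824-162318853 (IFIH1).
ISG15: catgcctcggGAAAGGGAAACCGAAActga
IFIT5: gtaagcttcaGAAACCGAAActtaatagaa
RSAD2: ttccacatgtGAAACTGAAAgttgaaacag
ISG20: taacaaactaGAAACTGAAAcagggtcggg
DTX3L: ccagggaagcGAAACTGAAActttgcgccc
IFIT1: ACCGAAAgggGAAAGTGAAActaaagctag
OAS3: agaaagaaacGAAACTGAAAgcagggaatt
BST2: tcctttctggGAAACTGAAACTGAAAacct
PARP14: tccaggaaacGAAAGCGAAAgagtcaaagt
IFIH1: gcggGAAACAGAAAAGGAAAgcgaattctc

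The stretch of DTX3L is also that of PARP9, since both are read from this site in opposite directions, and their ratios were 1.33 and 1.37. PARP14 has a core of its own and was 7.93-fold lower. IFIT1 and OAS3 each hold the core too, with ratios of 0.887 and 0.450.

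ISG15 and BST2 each have a pair of overlapping cores that form a longer run of the repeat, and their messages differed in opposite directions, 4.20-fold higher and 6.68-fold lower. They were picked with these ratios known, and HERC5 and IFIH1 hold such a pair too, with ratios of 1.41 and 0.0678. The whole promoters of ISG15 and BST2 are shown for comparison, with the cores in capitals, at chr1:1013247-1013546 (plus strand, first core starting at -113 from the start) and chr19:17405581-17405880 (minus strand, first core at -130).
ISG15: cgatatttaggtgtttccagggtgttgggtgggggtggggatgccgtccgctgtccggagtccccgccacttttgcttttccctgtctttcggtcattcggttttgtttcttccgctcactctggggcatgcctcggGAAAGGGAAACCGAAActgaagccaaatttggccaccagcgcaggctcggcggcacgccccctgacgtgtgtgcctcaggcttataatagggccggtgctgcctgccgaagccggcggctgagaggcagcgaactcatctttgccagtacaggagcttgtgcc
BST2: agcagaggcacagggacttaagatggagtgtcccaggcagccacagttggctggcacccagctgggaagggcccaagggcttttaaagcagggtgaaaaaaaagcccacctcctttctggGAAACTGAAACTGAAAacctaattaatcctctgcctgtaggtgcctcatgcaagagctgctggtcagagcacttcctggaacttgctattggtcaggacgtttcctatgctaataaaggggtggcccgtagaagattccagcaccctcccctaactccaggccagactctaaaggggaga

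The log2 ratios of the members had little relation with GC content. Over the 28 expressed members, the rank correlation with GC (Spearman's rho) was -0.05, against 0.40 over 10105 expressed genes, both given as a description across genes that share the same libraries. The members' median GC content was 46.2%, and that of all expressed genes 48.3%. After centring on the trend with GC, 7 members (25%) were higher by at least 1 and 4 (14.3%) lower, against 9.69% and 9.85% of all genes. The higher members were then GBP2, XAF1, OASL, IFI16, SP110, ISG15 and RSAD2, and the lower ones IRF2, LY6E, BST2 and IFITM3. The median over the members was then 0.51, against -0.02 over all genes.

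**Figure D4:**
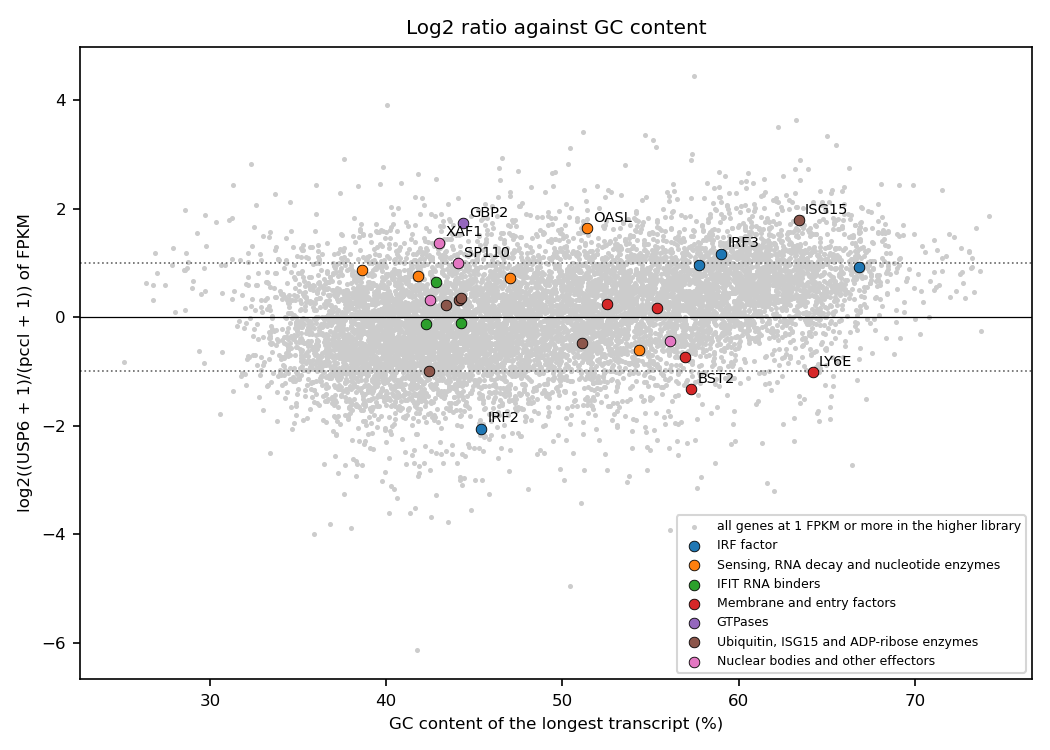
Log2 ratio of FPKM + 1 (USP6 over pccl) against the GC content (%) of the longest transcript, for all expressed genes (grey) and the 28 expressed members (coloured by role). Members past 1 or -1 (dotted lines) are named. GBP2, XAF1 and SP110 lie above 1 at a GC content of 44.4%, 43.0% and 44.1%, and LY6E and BST2 lie below -1 at 64.2% and 57.3%. ISG15, IRF3 and OASL also lie above 1, at 63.4%, 59.0% and 51.4%, and IRF2 lies below -1 at 45.4%.

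Upstream of the members, interferon messages were nearly absent. Of 21 interferon genes, 20 had 0 counts in both libraries. IFNB1, which encodes interferon beta, had 13 counts (1.21 FPKM) in the USP6 library and 0 in the pccl library. With 3 counts as the floor of the pccl library the ratio was 4.26, which leaves out the counting error of the 13 counts. Of 12 genes of receptors and JAK-STAT signalling, 11 were expressed, 3 higher by at least 1 on the log2 scale (IL10RB, TYK2 and IFNGR1) and 0 lower, where 13.7% and 11.4% of all genes were. The interferon gamma receptor gene IFNGR1 had 26.3 FPKM in the USP6 library and 9.66 in the pccl library, 2.72-fold higher (2.46 to 3.02).

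STAT2, which acts with IRF9, and JAK1 differed in direction, although neither passed the limit of 1, and they were named after their values were seen. STAT2 had 162 counts (1.25 FPKM) in the USP6 library and 86 (0.676 FPKM) in the pccl library, 1.85-fold higher (1.42 to 2.43). JAK1 had 95 counts (1.06 FPKM) in the USP6 library and 231 (2.63 FPKM) in the pccl library, 2.47-fold lower (1.94 to 3.18). STAT2 was thus higher and JAK1 lower, while the interval of IRF9 includes a ratio of 1.

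Of 17 genes of nucleic acid sensing in the table, 8 were expressed, 3 of them higher and 2 lower by at least 1, against 13.7% and 11.4% of all genes. MAVS, the mitochondrial adaptor of RIG-I and IFIH1, had 65 counts (0.233 FPKM) in the USP6 library and 1343 (4.90 FPKM) in the pccl library, 21.0-fold lower (16.4 to 27.4). CGAS, the cytosolic DNA sensor, had 52 counts (0.769 FPKM) in the USP6 library and 187 (2.81 FPKM) in the pccl library, 3.66-fold lower (2.68 to 5.08). The higher genes were TLR9, an endosomal DNA receptor, DHX58, a relative of IFIH1, and IKBKE, a kinase that activates IRF3. TLR9 was 8.76-fold higher (4.69 to 18.1), DHX58 3.69-fold higher (2.76 to 4.99) and IKBKE 2.72-fold higher (2.18 to 3.42).

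Of 41 further interferon-stimulated genes, 27 were expressed, with 4 higher and 6 lower by at least 1, against 13.7% and 11.4% of all genes, and a median log2 ratio of 0.32. TRIM14, an adaptor on the MAVS pathway, had 0.503 FPKM in the USP6 library and 5.10 in the pccl library, 10.1-fold lower (7.49 to 14.0). EIF2AK2, the RNA-activated kinase PKR, had 2.24 FPKM in the USP6 library and 9.58 in the pccl library, 4.27-fold lower (3.83 to 4.78). TAP2, a subunit of the peptide transporter, and ZC3HAV1, a protein that directs decay of viral RNA, were 4.41-fold lower (3.62 to 5.41) and 3.28-fold lower (2.82 to 3.81). In the other direction, the helicase gene MOV10 had 3.49 FPKM in the USP6 library and 0.513 in the pccl library, 6.80-fold higher (5.40 to 8.65). The chemokine gene CXCL10 had 33 counts in the USP6 library and 2 in the pccl library, a ratio of 16.2 (4.15 to 139.5).

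Among feedback and ISG15 conjugation genes, 8 of 9 were expressed, 2 of them higher (UBA7 and IRF2BP2) and 0 lower, on the same background of 13.7% and 11.4%. IRF2BP2, a corepressor named for its binding to IRF2, had 63.2 FPKM in the USP6 library and 29.6 in the pccl library, 2.14-fold higher (2.03 to 2.25). Of the partners with which IRF4 and IRF8 bind DNA, SPI1 had 230.4 FPKM in the USP6 library and 94.0 in the pccl library and BATF3 had 0.935 FPKM in the USP6 library and 3.32 in the pccl library. These are 2.45-fold higher (2.37 to 2.54) and 3.54-fold lower (2.39 to 5.39), while IRF4 and IRF8 themselves had at most 7 counts in a library.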

How the data were processed

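Per the labels, RNA of KASUMI-1 cells was sequenced, 1 library in each group. HISAT2 2.0.4, StringTie 1.3.3b and edgeR stand in the submitters' processing notes, with no role given. Neither the genome build nor the annotation or strandedness is given in the sources used here. The deposited counts are whole numbers for each gene. The deposited FPKM scale that count to the column's total and to a length per gene, and the length they imply differed between libraries by at most 0.1% in each of 16030 genes counted in both. It equalled the sum of distinct exons in GENCODE release 29 for 88.2% of 17751 genes. Of 50111 identifiers in that release, 94.8% had the identical locus, and gene coordinates are printed as deposited. The members and lists were chosen with earlier results of these data known.

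Rows with the same symbol were summed. A gene was taken as expressed at 1 FPKM in the higher library, and log2 ratios used a pseudocount of 1 FPKM. A single library per group leaves 0 residual degrees of freedom, so nothing was tested. Ratios of FPKM carry a 95% Clopper-Pearson interval, conditional on the sum of both counts, and a count of 0 was set to a floor of 3 for a bound. Every member with 20 counts is named with its values, and from the other lists at most 6 expressed genes past 1 or -1, with the exceptions stated. GC content is that of the longest GENCODE transcript, with a lowess trend of span 0.3. The alternatives were pseudocounts of 0.1, 0.5 and 5, filters of 5 FPKM, 20 counts or none, a 1.5-fold limit, GC centring, and scaling to a median of 0, by nuclear counts or by trimmed mean of M values. FPKM per merged exon length and the rule for neighbours were chosen after the data were seen. One result is not reported here. Scripts were tested on simulated data. Software comprised edgeR 4.0.16 under R 4.3.3, and SciPy 1.17.1, statsmodels 0.14.6, pandas 2.3.3, matplotlib 3.10.9 and NumPy 2.4.6 under Python 3.11.15.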

Additional observations from a re-analysis of the deposited data

How the results depend on the processing

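With a pseudocount of 0.1, 10 members were higher and 5 lower, against 2295 and 1993 of all genes. These are 35.7% and 17.9% of 28 members, against 22.6% and 19.6% of 10153 genes. With a pseudocount of 5, 1 was higher and 0 lower (364 and 301 of all genes), or 3.57% and 0% against 3.59% and 2.96%. A filter of 5 FPKM left 8 members and 4128 genes. Of these members 1 was higher and 1 lower (808 and 682 of all genes), or 12.5% each against 19.6% and 16.5%. With a 1.5-fold limit 12 of the 28 members were higher and 6 lower (2808 and 2465 of all genes). The shares were 42.9% and 21.4%, against 27.7% and 24.3% of all genes. The median log2 ratio of the members lay between 0.17 with no filter and 0.51 after GC centring, against 0.02 and -0.02 over all genes. It was positive in every setting run. All settings reuse the same libraries and members chosen with earlier results known, so this is no independent check on direction. Of the 9 members past the limit, SP110 dropped under it with 3 scalings and IRF3 after GC centring, and 8 dropped under it with a pseudocount of 5, all but ISG15. No sign of these 9 turned. No paired analysis was possible because each group holds 1 library, and leaving out a library leaves no comparison. Depth limits the 8 members under 20 counts, and of the 3 of these with a ratio, GBP4 and IFI27 had a counting interval that excludes 1 and IRF4 did not.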

Other observations

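The deposited gene length exceeded the whole locus for 6 members. For IRF7 it was 9009 bases over a locus of 3447, and for IFITM1 2158 bases over a locus of 1767. Per merged exon length, LY6E had 10.1 FPKM in the USP6 library and 23.8 FPKM in the pccl library, against deposited FPKM of 2.99 in the USP6 library and 7.04 in the pccl library. GBP3, a further guanylate-binding protein gene outside the list of members and chosen after its values were seen, had 5 counts in the USP6 library and 39 in the pccl library, 7.93-fold lower (3.13 to 25.8), opposite in direction to GBP2 and GBP5.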
